A study of Mus musculus with 8 samples.

Results

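The genes described here are 10 inhibitors of the cell cycle: the cyclin-dependent kinase (CDK) inhibitor genes Cdkn1a, Cdkn1b, Cdkn2a, Cdkn2b, Cdkn2c and Cdkn2d, the CDK phosphatase gene Cdkn3, and the growth arrest genes Gadd45a, Gadd45b and Gadd45g. They were taken by symbol from the 23100 genes of the count table, as inhibitors that bear on the description of Zac1 as antiproliferative, and all 10 were present and passed the filter on low counts. The cells were Min6, a mouse insulinoma line with features of pancreatic beta cells, transfected by lipid with the plasmid pRK5-Zac1 or with pRK5-NLSeGFP, the control that encodes a nuclear green fluorescent protein. Total RNA was taken 16 h later from 4 libraries of each kind, numbered 1, 2, 3 and 5 in both groups. Both groups were thus transfected cells of 1 line, with no untransfected group, and the share of cells that took up plasmid is not given in the sources used here, so every value averages over cells with and without it. A difference in RNA per cell and a difference in the number of cells that hold it cannot be told apart.

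Progress through the cell cycle is driven by CDKs bound to cyclins, and the products of these genes hold it back in different ways. The Cip/Kip proteins, p21Cip1 from Cdkn1a and p27Kip1 from Cdkn1b, bind cyclin-CDK complexes, above all those of Cdk2. The Ink4 proteins, from the Cdkn2 genes, bind Cdk4 and Cdk6 and keep the D-type cyclins away, so that the retinoblastoma protein stays active and E2F target genes stay off. In beta cells Cdkn1b and Cdkn2c are known targets of menin, and Cdkn2a is known for its increase with age. Gadd45 proteins are small acidic stress proteins that bind PCNA, p21Cip1 and the Cdk1-cyclin B complex, and that activate the kinase Map3k4 upstream of p38 and JNK.

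The libraries held 30.5 to 35.02 M (mega) counts in the control group and 34.7 to 42.4 M in the Zac1 group. Levels are counts per M counts of the library (CPM), scaled by the trimmed mean of M-values (TMM). All 9 beta cell markers looked at, Ins1, Ins2 and Iapp among them, exceeded 1 CPM, and they summed to 56666 to 73204 CPM among controls and 59105 to 66366 CPM with Zac1. Of 14 markers of other cells, 13 were in the table and 3 exceeded 1 CPM, led by the alpha cell hormone gene Gcg at 1432 CPM in the controls and 1556 CPM with Zac1; Prss1 and Cdh5 had 0 counts in all 8 libraries. The sum of these 13 was 1246 to 1685 CPM in the controls and 1339 to 2133 CPM with Zac1, and none of the 4 that could be tested was called. Plagl1, the gene that encodes Zac1, stood at 77.7 ± 7.38 CPM (SD, n = 4) in the controls and 4629 ± 777 CPM in the Zac1 libraries, endogenous and plasmid reads together, which checks the labels.

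Promoter sequence is shown for the genes whose fitted differences had the smallest unadjusted p, since the question put to these genes is a response to a DNA-binding factor. The 250 bases before the annotated start are given 5′ to 3′ from RefSeq on build GRCm38.p6, for Gadd45b at chr10:80929841-80930090 on the plus strand, for Gadd45a at chr6:67037408-67037657 on the minus strand and for the start of Cdkn1a that lies farther downstream at chr17:29093519-29093768, on the plus strand. Capitals mark GGGGCC, the left part of the described Zac1 core, and the GC box GGGCGG, each on either strand.
Gadd45b: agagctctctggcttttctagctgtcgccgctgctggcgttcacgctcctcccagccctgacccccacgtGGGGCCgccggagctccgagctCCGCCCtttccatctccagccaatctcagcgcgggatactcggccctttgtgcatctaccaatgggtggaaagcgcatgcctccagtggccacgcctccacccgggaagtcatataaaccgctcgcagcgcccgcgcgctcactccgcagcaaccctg
Gadd45a: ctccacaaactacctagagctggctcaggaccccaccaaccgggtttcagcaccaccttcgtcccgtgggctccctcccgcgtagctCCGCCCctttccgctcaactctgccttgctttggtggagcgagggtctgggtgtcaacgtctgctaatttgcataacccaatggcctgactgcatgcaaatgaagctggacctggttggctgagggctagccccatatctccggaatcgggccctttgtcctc
Cdkn1a: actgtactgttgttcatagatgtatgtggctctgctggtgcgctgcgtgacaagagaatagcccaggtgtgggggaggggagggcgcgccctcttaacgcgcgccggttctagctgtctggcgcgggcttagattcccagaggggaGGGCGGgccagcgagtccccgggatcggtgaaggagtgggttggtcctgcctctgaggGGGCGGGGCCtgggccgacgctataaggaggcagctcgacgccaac

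The full Zac1 core GGGGCCCC, which reads the same on both strands, was found in 0 of the 13 promoter windows listed for the 10 genes (250 bases before to 50 after each start), against 354 of 32851 windows (1.08%) of all genes. By gene, the full core was present for 0 of 10, against 1.53% of the 15580 genes of the count table that have a window. The shorter GGGGCC, which was not planned in advance, was present for 8 of the 10 genes, against 32.9% of these. The GC box was present for 9 of 10, against 50.7%. The letters are all G and C, and the comparison was not matched for GC content. In Gadd45b the GGGGCC begins at position -180 from the start and the GC box, on the other strand, at -158. In Cdkn1a the GC box at -46 and the GGGGCC at -42 overlap and are not separate matches. The same holds in Cdkn2b (4 and 8), Cdkn2c (-40 and -36) and Cdkn2d (-118 and -114). The gene counts for GGGGCC and the GC box are thus not independent. The Cdkn1a positions are from the downstream start, and the window of its other start held 0 GGGGCC and 0 GC boxes. Gadd45a has its GC box at -163, and its GGGGCC lies after the start, at 4, outside the printed bases. A match is a description of the letters only. No binding was measured in these libraries.

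The 10 genes differed widely in level. Per kilobase of annotated exon, Cdkn2c (p18Ink4c) was at 77.3 ± 1.66 CPM per kb in the control libraries and Gadd45a at 75.1 ± 5.57. Their ranges overlapped, with Cdkn2c above Gadd45a in 3 of 4 control libraries. Cdkn1b at 41.3 ± 2.92 and Cdkn2a at 40.6 ± 5.87 CPM per kb followed and also overlapped. Cdkn1a was lower, at 28.5 ± 0.685 CPM per kb, then Cdkn3 at 14.3 ± 1.29 and Gadd45g at 10.1 ± 0.849, and each of these 3 was above the next gene in 4 of 4 control libraries. The low end held Cdkn2b (p15Ink4b) at 2.38 ± 0.143, Gadd45b at 1.52 ± 0.136 and Cdkn2d (p19Ink4d) at 0.560 ± 0.129 CPM per kb. The annotation behind the deposited counts is not given in the sources used here, and lengths come from GENCODE M21. With the longest coding transcript in place of all exons, Gadd45a came first at 108 ± 8.04 CPM per kb, before Cdkn2c at 84.0 ± 1.81. By the same measure Cdkn1a at 48.7 ± 1.17 stood above Cdkn1b at 41.3 ± 2.92, and the order from Cdkn3 down was the same.

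**Figure D1:**
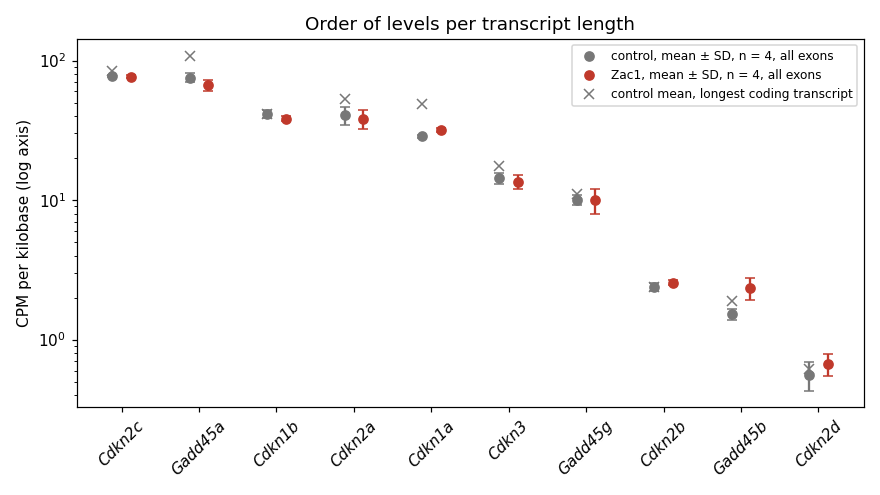
Level of the 10 genes in CPM per kilobase on a log axis, mean ± SD over 4 libraries per group, with crosses for control means per longest coding transcript. Cdkn2c and Gadd45a lie at the top, at 77.3 and 75.1 CPM per kb in the controls, and Gadd45b and Cdkn2d at the bottom, at 1.52 and 0.560.

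The question of the series was which genes respond to Zac1, and among these 10 genes 1, Gadd45b, passed the test over all genes. A gene is called here at a Benjamini-Hochberg adjusted p of at most 0.05 in edgeR's quasi-likelihood test over the 14331 tested genes, of which 2.15% were called higher and 0.0349% lower. The fit was on group alone, and calls with the replicate number as a block, which differ, are given at the end. None of the 10 was called lower in the fit on group alone, and 3 of them (Gadd45b, Cdkn1a and Gadd45a) had an unadjusted p of at most 0.05, against 7.58% of all tested genes. All 4 Zac1 libraries lay above all 4 control libraries for 2 of the 10, Gadd45b and Cdkn1a, against 4.39% of tested genes. The median log2 fold change of the 10 was -0.01, as was that of all tested genes, with 4 of the 10 above 0.

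Gadd45b, a gene known to be induced by NF-kB and TGF-beta signals, was the called gene. Its level was 2.19, 2.59, 2.61 and 2.26 CPM in control libraries 1, 2, 3 and 5, from 69 to 91 counts. In the Zac1 libraries it was 4.52, 3.55, 3.90 and 2.88 CPM, from 122 to 189 counts. The groups did not overlap, but Zac1 library 5 lay close above the highest control and Zac1 library 1 far above it. Gadd45b rose 1.54-fold (95% interval 1.23 to 1.93; log2 0.62 ± 0.15, SE; edgeR adjusted p = 0.0492). The exact two-sided permutation test of its log2 CPM gave p = 0.0286, the smallest that the 70 assignments of libraries allow. The call was lost without any 1 control library (edgeR adjusted p = 0.146, 0.0880, 0.0903 and 0.109 without 1, 2, 3 and 5), without Zac1 library 1, 2 or 3 (0.178, 0.0984 and 0.145) and in limma-voom (adjusted p = 0.0922). It was held without Zac1 library 5 (0.00549) and in DESeq2 (adjusted p = 0.0213).

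Its paralogs stood elsewhere. Gadd45a, a p53 and stress target, was at 135, 133, 143 and 119 CPM in control libraries 1, 2, 3 and 5 and at 121, 111, 131 and 106 CPM in the Zac1 libraries. The groups overlapped, since control library 5 lay within the Zac1 range and Zac1 library 3 just below the other controls. Its fitted level with Zac1 was 0.884 times that of the controls (95% interval 0.796 to 0.982; log2 -0.18 ± 0.07), which did not pass over all genes in the fit on group alone (edgeR adjusted p = 0.481). An antisense gene of the annotation, E230016M11Rik, overlaps 337 bases of its exons, and the strand setting of the counting is not given in the sources used here, so its count is uncertain to that extent. Gadd45g, which also activates Map3k4, was at 10.7, 12.9, 12.3 and 11.2 CPM in the controls and at 13.1, 11.5, 13.7 and 8.51 CPM with Zac1. The Zac1 libraries spanned the controls on both sides, and the log2 difference was -0.01 ± 0.13 (edgeR adjusted p = 0.994), with an interval of 0.818 to 1.20-fold.

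Ratios of counts within a library do not depend on how libraries are scaled, and 4 were compared: the 3 among the Gadd45 genes and Cdkn1a to Cdkn1b, chosen after the values were seen and so given with no test. Gadd45b counts were 1.63% to 1.95% of Gadd45a counts among controls and 2.73% to 3.74% with Zac1, with no overlap (log2 difference 0.78). Against Gadd45g they were 20.04% to 21.1% in the controls and 28.5% to 34.6% with Zac1, also with no overlap (log2 difference 0.64). Gadd45g to Gadd45a ranged from 7.96% to 9.72% and from 8.04% to 10.8%, which overlapped. A ratio within a library shows unequal change and not which of its genes changed.

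**Figure D2:**
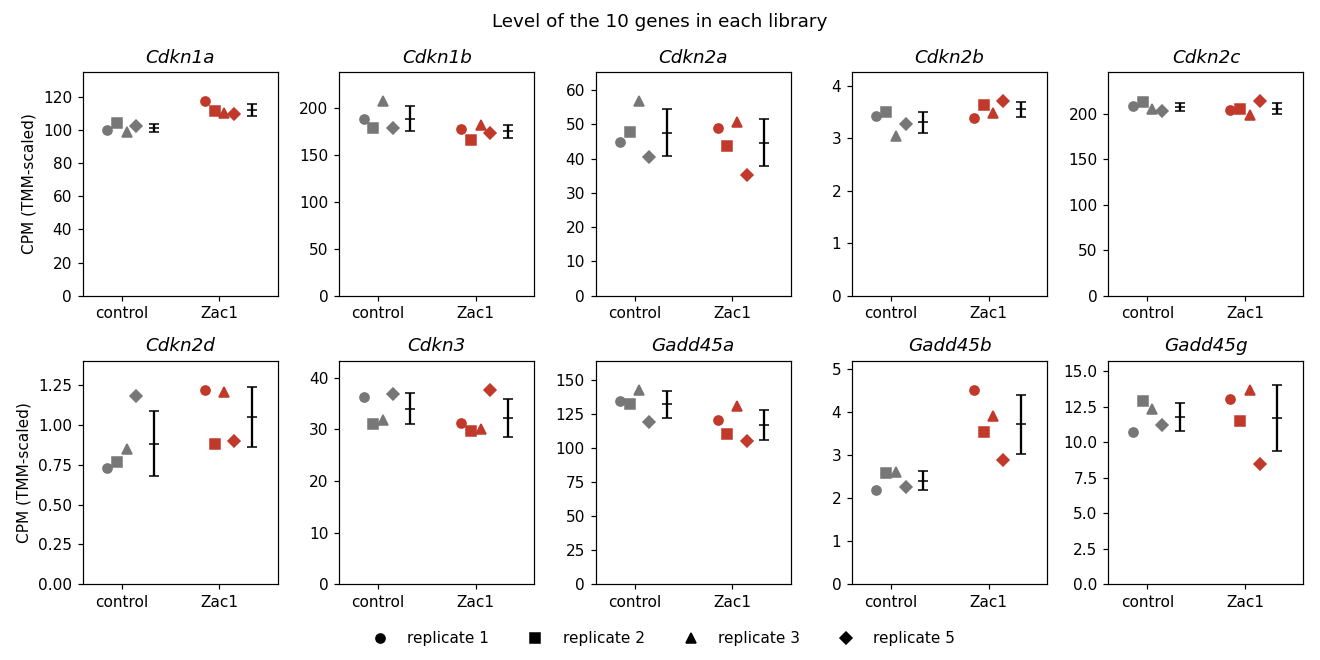
CPM of each gene in each library, axes from 0, with the mean and SD (n = 4) beside the points and a marker shape per replicate number. The Zac1 points of Gadd45b (2.88 to 4.52 CPM) and Cdkn1a (110 to 117 CPM) lie above all control points (up to 2.61 and 104 CPM), and the groups overlap in the other 8 genes.

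Of the Cip/Kip genes, Cdkn1a was at 99.9, 104, 98.9 and 103 CPM in control libraries 1, 2, 3 and 5. With Zac1 it was at 117, 112, 110 and 110 CPM. The groups did not overlap, and library 1 was the highest of the Zac1 group. The difference was small, 1.11-fold (95% interval 1.04 to 1.18; log2 0.15 ± 0.04), and did not pass over all genes (edgeR p = 0.00508, adjusted p = 0.167), while the exact permutation p was the smallest possible, 0.0286. The interval leaves out a 1.2-fold increase of Cdkn1a mRNA in the mixed culture. An unnamed antisense model of the annotation overlaps 273 bases of its exons, with the same limit as for Gadd45a.

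Cdkn1b was at 188, 179, 207 and 179 CPM in the controls and at 177, 166, 182 and 174 CPM with Zac1. Control library 3 was the highest and the groups overlapped, with a log2 difference of -0.11 ± 0.05 (edgeR adjusted p = 0.730). As counts, Cdkn1a was 47.7% to 58.3% of Cdkn1b among controls and 60.7% to 67.3% with Zac1 (log2 difference 0.25, again with no test). The fitted values of the pair thus lay on opposite sides of 0, and neither passed over all genes in the fit on group alone.

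The Ink4 genes showed no called difference. Cdkn2c, the most abundant of them, was at 208, 213, 205 and 203 CPM in the controls and at 205, 206, 199 and 214 CPM with Zac1. These ranges almost coincide, and the log2 difference of -0.01 ± 0.04 (edgeR adjusted p = 0.986) has an interval of 0.932 to 1.06-fold, the narrowest of the 10 genes. Cdkn2a encodes both p16Ink4a and p19Arf from separate first exons, which gene counts cannot part. It was at 44.9, 47.9, 56.8 and 40.6 CPM in the controls and at 48.9, 43.8, 50.8 and 35.4 CPM with Zac1, with library 5 the lowest and library 3 the highest in both groups. Its log2 difference was -0.09 ± 0.13 (edgeR adjusted p = 0.963), with an interval of 0.774 to 1.14-fold.

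Cdkn2b, the neighbour of Cdkn2a and a TGF-beta response gene in other cells, was at 3.05 to 3.495 CPM in the controls and 3.39 to 3.71 CPM with Zac1, on 97 to 157 counts per library. The groups overlapped and the log2 difference was 0.10 ± 0.11 (edgeR adjusted p = 0.954). Cdkn2d was near the limit of what the depth resolves, at 25 to 51 counts per library. It was at 0.731, 0.767, 0.848 and 1.18 CPM in control libraries 1, 2, 3 and 5 and at 1.22, 0.879, 1.20 and 0.898 CPM with Zac1. The highest control lay within the Zac1 range, and the interval of 0.862 to 1.67-fold is the widest of the 10 (log2 0.26 ± 0.22; edgeR adjusted p = 0.931). Cdkn3, whose product dephosphorylates Cdk2, was at 36.3, 31.0, 31.8 and 36.9 CPM in the controls and at 31.3, 29.7, 30.1 and 37.7 CPM with Zac1. Library 5 was the highest in both groups, and the log2 difference was -0.08 ± 0.08 (edgeR adjusted p = 0.952).

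**Figure D3:**
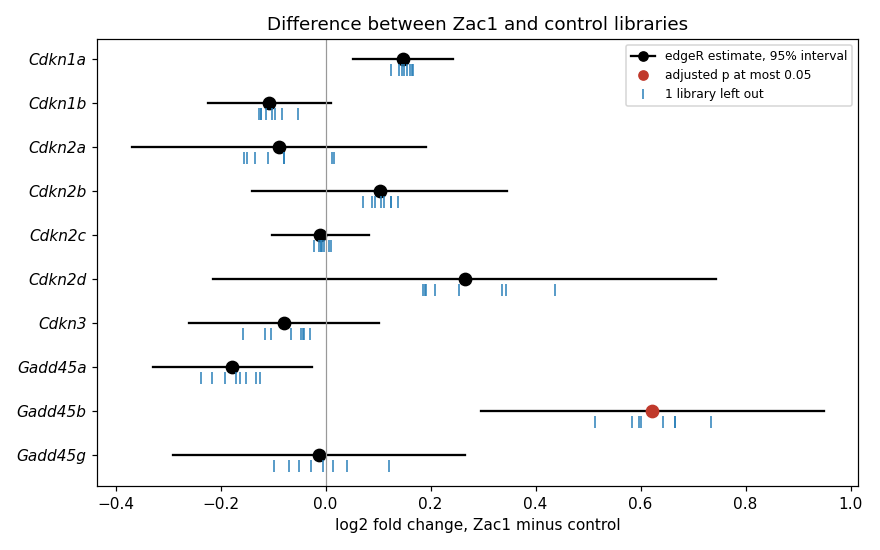
Log2 fold change of each gene, Zac1 minus control, as a point with its 95% interval from edgeR, and below it the estimates with 1 library left out. Gadd45b at 0.62 (0.51 to 0.73 with 1 library left out) is the called gene, and the leave-one-out estimates of Cdkn2a, Cdkn2c and Gadd45g fall on both sides of 0.

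The genes also differed in how much they varied within a group. Cdkn1a and Cdkn2c were the steadiest, with coefficients of variation of 2.40% and 2.15% among controls and 3.16% and 3.03% among Zac1 libraries, where counting alone gives 1.595% and 1.149%. Cdkn2a varied by 14.5% and 15.4% against a counting error of 2.44%. Gadd45g varied by 8.44% among controls and 19.8% among Zac1 libraries, and Gadd45b by 8.95% and 18.4%, against counting errors of 4.82% and 9.35%. In Cdkn2b the variation, 5.999% and 3.98%, was below the counting error of 8.90%. Within the Zac1 group the 3 Gadd45 genes and Cdkn2a were lowest in library 5 and highest in library 1 or 3. In Zac1 library 5 they stood below the group mean by log2 -0.14 (Gadd45a), -0.34 (Gadd45b), -0.44 (Gadd45g) and -0.32 (Cdkn2a). Cdkn3 stood above it there, by 0.23. Zac1 library 1 had the most Plagl1, at 5785 CPM against 4117 to 4368 in the other Zac1 libraries. It also had the highest Gadd45b and Cdkn1a of the group. Zac1 library 5, next in Plagl1 at 4368 CPM, had the lowest Gadd45b and Cdkn1a. With 4 libraries a relation to Plagl1 was not tested.

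**Figure D4:**
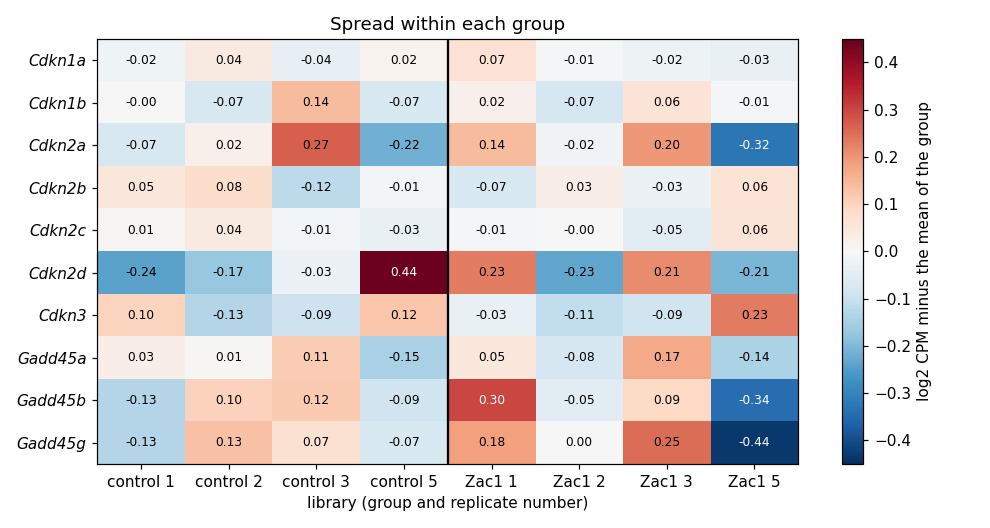
Log2 CPM of each gene in each library minus the mean of its group, as colour and number. Library 5 is low for Cdkn2a in both groups (-0.22 and -0.32) and high for Cdkn3 (0.12 and 0.23), and Zac1 library 5 is low for the 3 Gadd45 genes.

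By the root mean square difference of mean-centred log2 CPM over the 8 libraries, the 3 genes most like Gadd45b among 11183 others with at least 50 counts on average were Axin2, Unc93b1 and Lrp1, at 0.097, 0.111 and 0.130. The measure includes the difference between groups, so a difference like that of Gadd45b follows in part from the choice. The values below describe these genes and are no separate result. Axin2, a feedback inhibitor of Wnt signalling, was called (log2 0.59 ± 0.12; edgeR adjusted p = 0.0115). Unc93b1, a chaperone of Toll-like receptors, had a log2 difference of 0.45 ± 0.16 (edgeR adjusted p = 0.338), and the endocytic receptor Lrp1 one of 0.39 ± 0.10 (edgeR adjusted p = 0.0848).

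Around the inhibitors, none of the 6 lists of related genes had a called member, against the 2.15% higher and 0.0349% lower of all tested genes. At an unadjusted p of at most 0.05, 9 of their 94 tested genes were higher and 1 lower, where 5.65% of all tested genes were higher and 1.93% lower at that p. All 12 cyclins and CDKs that these inhibitors act on were tested, with 1 higher at that p and a median log2 of 0.04. That gene was Ccnd1, cyclin D1, which had 3, 2, 8 and 0 counts in control libraries 1, 2, 3 and 5 and 20, 12, 14 and 31 counts with Zac1. Every Zac1 library was above every control, yet the levels of 0.0989 ± 0.108 and 0.472 ± 0.186 CPM are low. Ccnd1 passed the filter on low counts only through the Zac1 libraries, so that its groups do not overlap follows in part from the filter. The log2 difference of 2.23 ± 0.55 did not pass (edgeR adjusted p = 0.0541). It was called in DESeq2 (adjusted p = 0.0260) and limma-voom (adjusted p = 0.0464). Leaving out control library 3 gave 3.18 (edgeR adjusted p = 0.0162), and leaving out both number 5 libraries gave 1.57 (edgeR adjusted p = 0.186). Ccnd2, outside the naming rule and chosen after its values were seen, carried most D-type cyclin counts, at 743 CPM in the controls and 771 CPM with Zac1 (log2 0.05 ± 0.05; edgeR adjusted p = 0.938). The kinase Cdk2 had a log2 difference of 0.11 ± 0.06 (edgeR adjusted p = 0.769).

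Downstream of the CDKs, 1 of 19 retinoblastoma, E2F and replication genes was higher at the unadjusted p, against the 5.65% of all tested genes, and none lower (median log2 0.04). This was E2f3, an activating E2F, at 0.18 ± 0.07 (edgeR adjusted p = 0.493), followed by the helicase subunit Mcm4 at 0.07 ± 0.04 (edgeR adjusted p = 0.815). The values of this list ran from -0.05 to 0.18. Among 18 tested p53 targets other than Cdkn1a and Gadd45a, 2 were higher at the unadjusted p, against the same 5.65%, and none lower (median log2 0.08). Plk2, a stress-induced kinase, was at 7.02, 8.87, 7.25 and 11.3 CPM in control libraries 1, 2, 3 and 5 and at 12.6, 11.03, 11.5 and 15.3 CPM with Zac1, where control library 5 overlapped the Zac1 group. Its log2 difference was 0.56 ± 0.15 (edgeR adjusted p = 0.112); it was called when control library 5 was left out (0.72, edgeR adjusted p = 0.00468), when both number 5 libraries were (0.61, edgeR adjusted p = 0.00243) and in DESeq2 (adjusted p = 0.0125). Polk, a translesion polymerase, had 0.20 ± 0.08 (edgeR adjusted p = 0.433).

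Among 11 tested genes that restrain growth in other ways (median log2 0.02), the smallest p belonged to the p53 relative Trp73 (0.70 ± 0.27; edgeR adjusted p = 0.451) and to the antiproliferative Tob1 (-0.11 ± 0.05; edgeR adjusted p = 0.541). Of 11 tested kinases and repair proteins that Gadd45 proteins act with (median log2 0.00), Mapk14, the p38 alpha kinase, had 0.13 ± 0.04 with groups that did not overlap (edgeR adjusted p = 0.274), and its activator Map2k3 0.18 ± 0.08 (edgeR adjusted p = 0.623). Of 23 described upstream regulators (median log2 -0.01), Foxo1, which activates Cdkn1b, and the stress factor Ddit3 each had 0.17 ± 0.07 (edgeR adjusted p = 0.584 and 0.607).

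**Figure D5:**
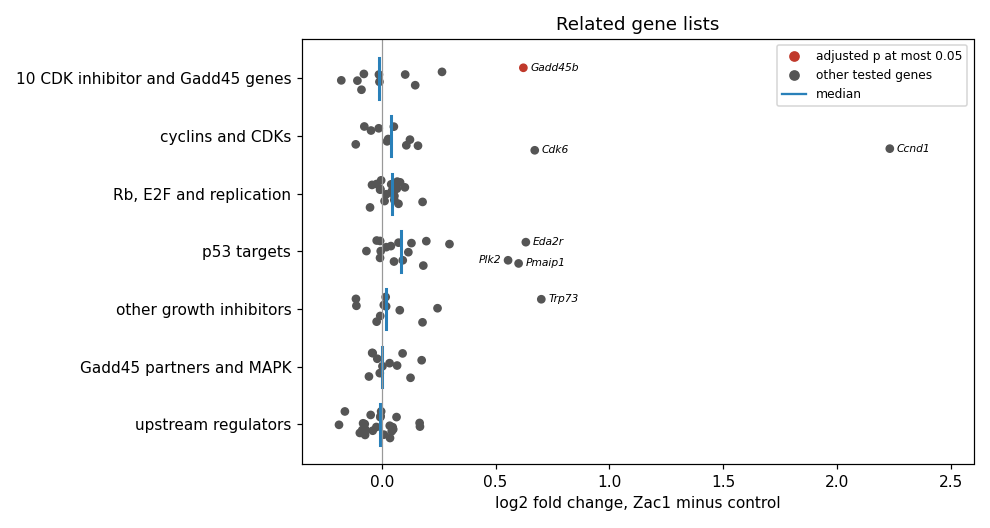
Log2 fold change, Zac1 minus control, of each tested gene in the 10 inhibitor genes and in 6 related lists, with the list median as a bar. Gadd45b is the one called gene (red), the list medians lie between -0.01 and 0.08, and Ccnd1 at 2.23 rests on 0 to 8 counts per control library.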

How the data were processed

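The authors deposited 1 table of raw counts of reads per gene, in whole numbers, with 1 column for each of 8 libraries. Per the submitters' processing notes, TopHat2 2.1.1, Bowtie2 2.2.8 and HTSeq 0.6.1p1 were used with the mouse build mm9; no source used here gives the annotation, strand setting or filters. Per the labels' protocols, libraries were stranded mRNA libraries. From the deposited counts, edgeR 4.0.16 (R 4.3.3) was run on all genes with filterByExpr, TMM scaling and the robust quasi-likelihood fit on group, and p was adjusted by Benjamini-Hochberg over 14331 tested genes. The SE is the absolute log2 fold change divided by the square root of F. limma 3.58.1 (voom) and DESeq2 1.42.0 were alternatives, and the edgeR steps were tested on simulated counts. Log2 CPM for permutation tests and spread used a prior count of 0.5. The labels do not say that replicates were separate cultures, though the design text calls them biological. Replicate pairs differed by more than counting noise. The chi-square per degree of freedom was 8.91 to 12.3 among numbers 1, 2 and 3 and 15.6 to 29.8 for pairs with number 5. The p-values measure the spread between these libraries. Counting errors are the inverse square root of the mean count; since no molecular identifiers mark PCR copies, they cover counting only. No group or library was left out.

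The 10 genes and the related lists were chosen with earlier results of these data known. Genes named beyond the 10 are Plagl1, from each list the 2 tested genes with the smallest p and each called gene, and the 3 genes most like the member with the smallest p; others are said to be outside the rule. Promoter windows came from RefSeq (GRCm38.p6) by symbol, found for all 10 genes, and exon lengths and overlaps from GENCODE M21; no coordinate was carried between builds.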

Additional observations from a re-analysis of the deposited data

How the results depend on the processing

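Of 159 values of the 10 genes under 16 alternatives, 138 kept direction and side of the threshold, 9 lost it (Gadd45b in each case), 2 passed it and 10 changed sign; Cdkn2d had no value among genes with a mean count of 50 or more, and the cause of the changes was not tested. The count of called genes among the 10 was 1, and 0 in limma-voom, among genes with a mean count of 50 or more, and without any 1 library other than Zac1 library 5 (0 to 1 with 1 library left out). It was 3 with the replicate block. Over all genes 313 were called, 99 among genes with a mean count of 50 or more, where fewer genes are tested, and 262 to 362 with 1 library left out. Gadd45b did not pass among genes with a mean count of 50 or more (log2 0.63, edgeR adjusted p = 0.123) or in limma-voom (0.60); with 1 library left out it ranged from 0.51 to 0.73. The sign changes were in Cdkn2a, Cdkn2c and Gadd45g, at log2 -0.09, -0.01 and -0.01 in the main fit, with intervals that include 0. With library totals only, Cdkn2c gave 0.0084 and Gadd45g 0.0068, and without both libraries numbered 5 Gadd45g gave 0.10. With 1 library left out, Cdkn2a ranged from -0.16 to 0.015, Cdkn2c from -0.023 to 0.0099 and Gadd45g from -0.10 to 0.12.

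The cyclins and CDKs had 1 called gene, Ccnd1, with library totals only, with no filter, in DESeq2, in limma-voom and with the replicate block (0 to 1 with 1 library left out). The p53 targets had 1, Plk2, in DESeq2 and without both libraries numbered 5 (0 to 1 with 1 library left out). The other lists had 0 throughout.

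The shared replicate numbers were not taken as pairs. Deviations of same-numbered libraries from their group means correlated across genes at 0.0493 to 0.263, over 0.1 for 3 of 4 numbers, and 7 of 8 libraries correlated best with their own number. With the number as a block, 628 genes were called, among them all 313, and 3 of the 10 genes: Gadd45b, Cdkn1a (log2 0.15, edgeR adjusted p = 0.0264) and Gadd45a (-0.18, edgeR adjusted p = 0.00352), with 2 p53 targets, Plk2 and Trp53inp1.

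Depth limits Cdkn2d, at 25 to 51 counts per library, and Ccnd1, at 0 to 31. Library totals in place of TMM moved the median of all genes by 0.0185 on the log2 scale.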
